A study of Rattus norvegicus with 2 samples.

Results

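The genes described here encode the mitochondrial ribosome and the proteins that feed it, followed through a screen in which piggyBac transposons disrupted genes of rat haploid embryonic stem cells (haESCs). They were taken by name from the table of insertions per gene. They are the Mrpl and Mrps ribosomal proteins, the mitochondrial aminoacyl-tRNA synthetases whose symbols end in ars2, and the factors Tufm, Tsfm, Gfm1, Gfm2, Mtif2 and Mtif3. The rule found 96 of the 18156 entries listed and used no measured value. They carry 92 distinct symbols, and 8 of the entries are numbered copies of the 4 symbols Mrpl1, Mrpl30, Mrpl36 and Mrpl53. By role there were 47 large-subunit entries, 28 small-subunit entries, 15 synthetases and 6 translation factors.

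The screened cells were mutants of RAH-1, a rat haploid line in which GFP reports Rex1, a marker of naive pluripotency. Both libraries came from mutants of this 1 line that carried PB-SA-RFP, a transposon with a splice acceptor, and that had been sorted for GFP and RFP. PB-Diff was sampled after screening, when mutants left to differentiate at random had been sorted for remaining GFP and put back on feeder cells in 2i/LIF medium, and PB-Ctrl was sampled before screening. With 1 library per group no difference below has a replicate check, and the intervals speak for counting error alone, not for variation between libraries. PCR copies that carry no molecular identifier cannot be counted as separate molecules, so the intervals may be too narrow for counting error as well.

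Mitochondria keep a ribosome of their own, which translates the few messages of the mitochondrial genome into core subunits of the respiratory chain and ATP synthase. Its proteins are made in the cytosol from nuclear genes and imported, the large subunit joining amino acids and the small subunit reading the message. A largely separate set of synthetases charges the mitochondrial tRNAs. In a haploid cell an insertion that stops such a gene leaves no second copy.

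PiggyBac integrates at the tetranucleotide TTAA, which reads the same on both strands. Promoter sequence from RefSeq (assembly GRCr8, where both genes lie on the minus strand) is shown for the members with most insertions among those hit in 1 library only, Mrpl48 after and Mrps10 before screening. Each run is the 250 bases before the annotated start, 5′ to 3′, with every TTAA in capitals, from chr1:164351377-164351626 for Mrpl48 and chr9:21122454-21122703 for Mrps10.
Mrpl48: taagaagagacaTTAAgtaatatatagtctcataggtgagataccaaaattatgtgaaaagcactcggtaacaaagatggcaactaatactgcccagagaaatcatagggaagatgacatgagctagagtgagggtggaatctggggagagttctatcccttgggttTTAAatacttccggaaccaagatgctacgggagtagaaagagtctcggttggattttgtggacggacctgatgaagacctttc
Mrps10: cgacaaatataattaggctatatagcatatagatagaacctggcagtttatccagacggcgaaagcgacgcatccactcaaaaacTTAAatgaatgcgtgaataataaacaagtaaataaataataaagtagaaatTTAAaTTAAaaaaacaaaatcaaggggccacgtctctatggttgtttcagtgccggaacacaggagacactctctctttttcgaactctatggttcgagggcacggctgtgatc
The Mrpl48 stretch held TTAA at 238 and 83 bases before the start. The Mrps10 stretch held it at 165, 114 and 109 bases before the start. Of all 300-base promoter windows, which run from 250 bases before to 50 after a start, 53.9% held at least 1 TTAA (18044 of 33469). Of the 77 windows of 75 members, 37 did (48.1%), and Tufm had most, with 4. These matches describe the letters only, since the table gives no position of an insertion.

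Genes took 1287231 insertions (2351082 reads) after screening and 1528935 insertions (2824155 reads) before screening. The members together took 3871 insertions after and 5399 before screening, which is 0.301% and 0.353% of the insertions in genes. Taken as 3 insertions, the upper limit for a gene with none was 0.000233% of the insertions after and 0.000196% of those before screening. Of the 96 members, 69 were hit after screening, 73 before and 62 in both. No insertion was seen in either library in 16 members (16.7%, against 21.1% of all entries), namely Ears2, Yars2, Mrpl23, Mrpl40, Mrpl41, Mrpl43, Mrpl46, Mrpl50, both Mrpl53 entries, Mrps12, Mrps14, Mrps21, Mrps22, Mrps28 and Mrps33. A further 8 held fewer than 10 insertions over both libraries. Of these, Mrps18b and Mrps18c had 5 and 6 insertions after screening and 0 before, Hars2 and Mrpl17 had 0 after and 9 each before, Mrps34 had 0 after and 4 before, and Mrpl22, Mrpl34 and Mtif3 had 1, 4 and 2 after against 0, 5 and 4 before. The other 72 members were measured, that is, they held at least 10 insertions.

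Across the measured members insertions moved both ways. Members were called where the share of insertions in genes differed at least 4-fold between the libraries and the 95% interval of the ratio excluded 1, which is a rule of size and not a test across samples. By this rule 18 of 72 members were higher after screening (25%, against 19.5% of the 11976 genes measured) and 20 were lower (27.8%, against 21.7%). At 2-fold, without regard to the interval, 23 members were higher (31.9%, against 31.5%) and 28 lower (38.9%, against 32.4%). The median log2 ratio of shares was -0.13 over the members and -0.01 over all measured genes. Members held fewer insertions than other genes, with a median of 62.5 over both libraries against 105 in all measured genes. Among genes with at least 50 insertions, 7 of 38 members were higher (18.4%, against 15.5%) and 11 were lower (28.9%, against 17.4%). Summed over members, the share after screening was 0.852 times that before (0.817 to 0.888). Intervals of summed shares, here and below, do not cover the spread between genes. Leaving out genes moved this ratio outside its interval, to 0.910 without Mrps27 and 0.683 without the 5 members with most insertions. The members' shares called lay above those of all genes under each of these rules, least so at 2-fold higher, and these gaps were not tested.

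**Figure D1:**
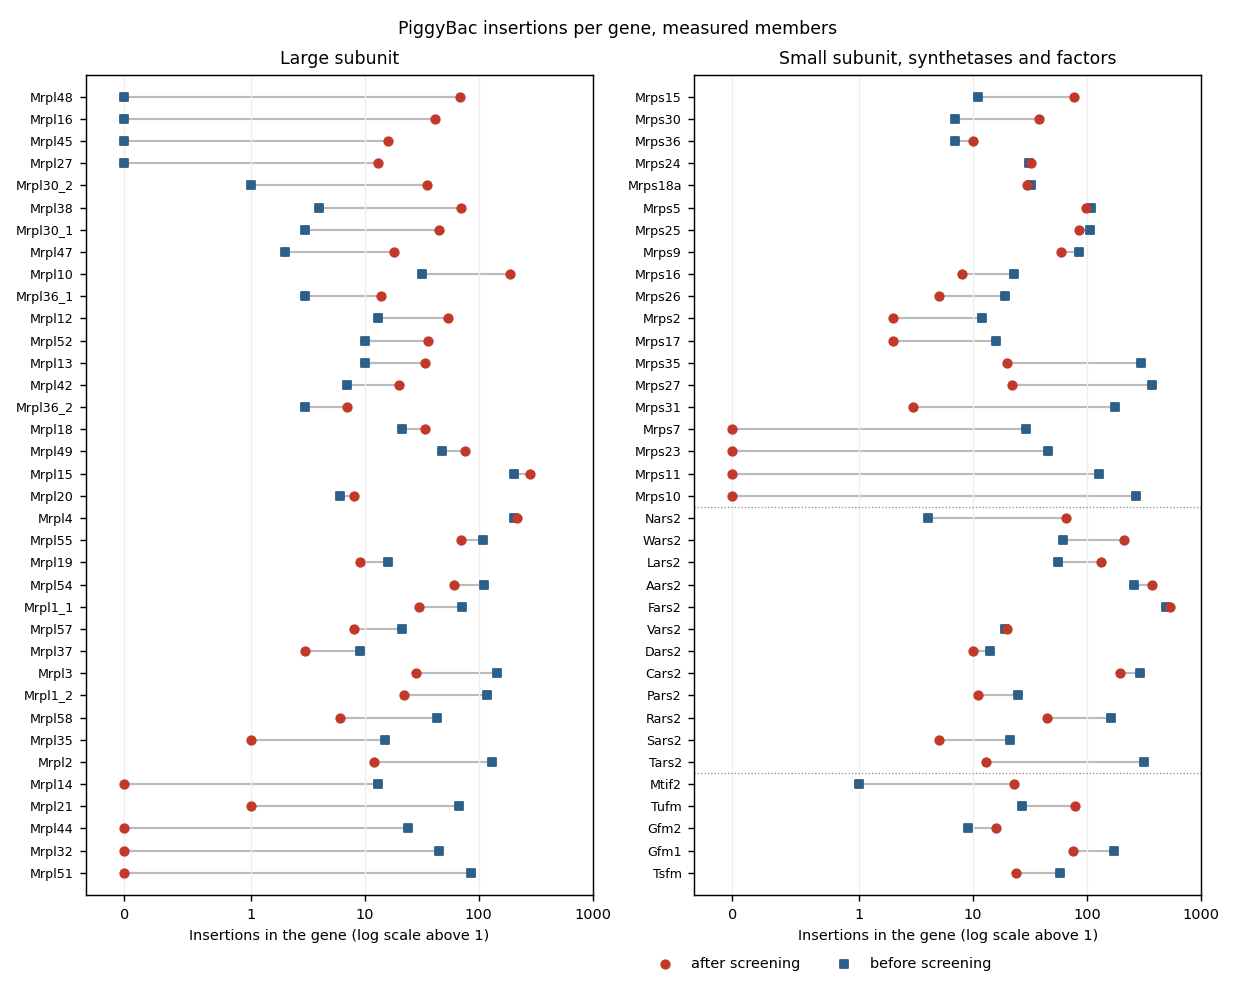
Insertions in each measured member after screening (red circles) and before screening (blue squares), on an axis that is linear to 1 and logarithmic above it. In the right panel dotted lines part the small subunit, the synthetases and the translation factors. Genes at 0 in 1 library, such as Mrpl48 (69 after, 0 before) and Mrps10 (0 after, 269 before), stand beside genes with like counts in both, such as Mrpl4 (215 after, 202 before).

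In the large subunit, with 36 of the 72 measured entries, insertions were gained and lost. By the 4-fold rule 13 entries were higher (36.1%, against 19.5% of all measured genes), the numbered copies of Mrpl30 among them, and 10 were lower (27.8%, against 21.7%), with a median log2 ratio of 0.68. Its summed share was 1.13 times that before screening (1.05 to 1.21), from 1529 insertions after and 1606 before.

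Mrpl48, a protein of the central protuberance, had 69 insertions after screening and 0 before, so its share was at least 27.3-fold higher. Mrpl16, which lies near the peptidyl transferase centre, had 41 after and 0 before (at least 16.2-fold higher). Mrpl45, close to the exit tunnel and the inner membrane, had 16 after and 0 before (at least 6.33-fold higher). Mrpl27, another neighbour of the peptidyl transferase centre, had 13 after and 0 before (at least 5.15-fold higher). These 4 were the only ones of the 72 measured members with insertions after screening alone, against 749 of all 11976 measured genes. Each bound, here and below, sets the empty library at 3 insertions and takes the other count as exact. It is therefore larger than the lower limit of the interval. That limit was 21.6-fold for Mrpl48, 12.6-fold for Mrpl16 and 4.58-fold for Mrpl45. For Mrpl27 it was 3.62-fold, which is under 4. Mrpl38, also of the central protuberance, had 70 insertions after and 4 before screening, a 20.8-fold higher share (7.77 to 78.4).

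The entries of Mrpl30 moved alike. Mrpl30_1 had 45 insertions after and 3 before screening (17.8-fold higher, 5.72 to 89.6), and Mrpl30_2 had 35 after and 1 before (41.6-fold, 6.99 to 1688). The entries share a symbol and their reads may have been split between them, so they are not separate evidence, and their values are uncertain. With all numbered entries summed by symbol, 17 members were higher and 19 lower of 69. Over all measured genes, whose entries were not summed, 19.5% were higher and 21.7% lower.

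Mrpl10 and Mrpl12 together build the stalk that calls translation factors to the ribosome. Mrpl10 had 189 insertions after and 32 before screening (7.02-fold higher, 4.80 to 10.5), the most after screening of any member called higher in the large subunit. Mrpl12 had 54 after and 13 before (4.93-fold, 2.66 to 9.86), and 32 of the 54 and 9 of the 13 were read as exon insertions. Both stalk genes were thus higher. Counted in reads the log2 ratio of Mrpl10 was 3.55, against 2.79 in insertions, with 2.19 reads per insertion after and 1.31 before screening.

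The other large-subunit entries called higher rested on smaller counts. Mrpl47, near the exit tunnel, had 18 insertions after and 2 before screening (10.7-fold, 2.56 to 95.0). Mrpl36_1 had 14 after and 3 before (5.54-fold, 1.55 to 30.1). The other entry of that symbol, Mrpl36_2, had 7 after and 3 before (2.77-fold, 0.633 to 16.6) and was not called. Mrpl52 had 36 after and 10 before (4.28-fold, 2.08 to 9.66), and Mrpl13 had 34 after and 10 before (4.04-fold, 1.95 to 9.16). The folds of Mrpl52 and Mrpl13 sat just past 4, and each fell short of it under 1 or more of the alternative settings.

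Some of these genes overlap a neighbour in GRCr8, and where 2 genes lie over each other an insertion may come from either. Rab6a, which overlaps Mrpl48, had 5 insertions after and 54 before screening, the opposite direction to Mrpl48. Stx3 beside Mrpl16 had 8 after and 0 before, and Lrrc46 beside Mrpl10 had 3 after and 0 before. Mrpl47 overlaps Actl6a, with 10 after and 4 before, and Ndufb5, with 6 after and 2 before. Eme1 beside Mrpl27 had 0 in both libraries. In all, 28 members overlapped another annotated gene or predicted locus. Called among them were 10, namely Mrpl10, Mrpl14, Mrpl16, Mrpl27, Mrpl36_1, Mrpl47, Mrpl48, Mrps2, Mrps31 and Nars2. Among the measured members without such a neighbour, 11 of 49 were higher and 17 lower, and their summed share was 0.760 times that before screening. Over all measured genes 19.5% were higher and 21.7% lower, but genes with a neighbour were not left out there. The part of the overlaps in these values was not tested.

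The large-subunit members that lost insertions included 4 with none after screening. Mrpl51 had 0 insertions after and 86 before, at least 24.1-fold lower, and 58 of the 86 were read as exon insertions. Mrpl32, which the inner membrane m-AAA protease processes, had 0 after and 45 before (at least 12.6-fold lower). Mrpl44, a protein with an RNase III-like domain, had 0 after and 24 before (at least 6.74-fold lower). Mrpl14 had 0 after and 13 before, where the bound, at least 3.65-fold lower, stayed under 4 (interval from 2.57). Mrpl21 had 1 insertion after and 67 before screening (56.4-fold lower, 9.78 to 2261).

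Mrpl2 and Mrpl3, conserved core proteins of the large subunit, fell with larger counts. Mrpl2 had 12 insertions after and 131 before screening (9.19-fold lower, 5.09 to 18.2), and Mrpl3 had 28 after and 145 before (4.36-fold lower, 2.89 to 6.79). Mrpl58, a peptidyl-tRNA hydrolase that rescues stalled ribosomes, had 6 after and 43 before (6.03-fold lower, 2.56 to 17.3). Mrpl35 had 1 after and 15 before (12.6-fold lower, 1.94 to 532). Of the entries of Mrpl1, whose bacterial counterpart forms the L1 stalk, Mrpl1_2 had 22 after and 117 before (4.48-fold lower, 2.82 to 7.42) and Mrpl1_1 had 30 after and 72 before (2.02-fold lower, 1.30 to 3.21), so only the first passed the rule. With the entries summed by symbol, Mrpl1 was not called.

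The remaining 13 measured large-subunit entries were not called. Mrpl15 had 280 insertions after and 202 before screening, a ratio of 1.65 (1.37 to 1.98). Mrpl4 had 215 after and 202 before, a ratio of 1.26 (1.04 to 1.54). These 2 held the most insertions of the large subunit over both libraries, and neither moved 2-fold.

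The small subunit lost insertions more than it gained them. Of 19 measured members, 9 were called lower (47.4%, against 21.7% of all measured genes) and 2 higher (10.5%, against 19.5%), with a median log2 ratio of -1.58. Its genes held 504 insertions after and 1786 before screening, a share 2.98-fold lower (2.70 to 3.30). Most of the insertions lost from the small subunit were in few genes. The 5 with most insertions before screening, Mrps27, Mrps35, Mrps10, Mrps31 and Mrps11, held 45 insertions after (8.93% of the small subunit) and 1249 before (69.9%). Without these 5 the summed share after screening was 1.02 times that before (0.894 to 1.15), the median log2 ratio was -0.16, and 4 of 14 members were lower. Choosing genes by a high count before screening favours a fall by itself. Without the 5 with most insertions over both libraries, the share was 1.91-fold lower (1.65 to 2.20), the median log2 ratio was -1.40, and 6 of 14 members were lower. Among small-subunit members with at least 50 insertions, 5 of 11 were lower (45.5%, against 17.4% of all genes so filtered), 1 was higher (9.09%, against 15.5%), and the median log2 ratio was -0.27.

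Mrps10, counterpart of a bacterial protein of the small-subunit head, had 0 insertions after screening and 269 before, at least 75.5-fold lower (interval from 61.0). Its bound was the largest among the members, and its 269 insertions, of which 124 were forward and 123 reverse, came from 406 reads. Mrps11, with a counterpart in bacteria as well, had 0 after and 127 before (at least 35.6-fold lower). Mrps7, whose bacterial counterpart helps to organise the head, had 0 after and 29 before (at least 8.14-fold lower). Mrps23, specific to mitochondria, had 0 after and 46 before (at least 12.9-fold lower). These 4 genes, with Mrpl14, Mrpl32, Mrpl44 and Mrpl51, were the only measured members hit before screening alone. They were 8 of 72 measured members, against 971 of all 11976 measured genes.

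Mrps31, Mrps27 and Mrps35 are mitochondria-specific proteins, and Mrps27 is a pentatricopeptide repeat protein. Mrps31 had 3 insertions after and 178 before screening (49.95-fold lower, 16.8 to 245). Mrps27 had 22 after and 374 before (14.3-fold lower, 9.31 to 23.1), the most before screening of any ribosomal protein in the set. Its orientation was counted for only 1 insertion before screening, against 18 after, and its exon insertions could not be read. Disrupting insertions of Mrps27 numbered 10 after and 191 before screening. Mrps35 had 20 after and 301 before (12.7-fold lower, 8.06 to 21.0), with 81 exon insertions among the 301 and 4 among the 20.

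Mrps17, a counterpart of a bacterial rRNA-binding protein, had 2 insertions after and 16 before screening (6.74-fold lower, 1.58 to 60.4). Mrps2 had 2 after and 12 before (5.05-fold lower, 1.12 to 46.5). Both calls rest on few insertions. Against these, Mrps15, which has a counterpart in bacteria, had 77 after and 11 before (8.31-fold higher, 4.40 to 17.3), and Mrps30 had 38 after and 7 before (6.45-fold higher, 2.84 to 17.1). Mrps15 held 29 reads before screening, or 2.64 per insertion, so that its log2 ratio was 2.06 in reads and 3.00 in insertions.

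The symbol does not always give the place. Structures of the mammalian mitoribosome put Mrps30 and Mrps18a in the large subunit, and Mrps36 is a subunit of the 2-oxoglutarate dehydrogenase complex. Without these 3, 9 of 16 small-subunit members were lower and only Mrps15 was higher, with a median log2 ratio of -2.27 and a summed ratio of 0.291 (0.261 to 0.323). All 3 left out had log2 ratios above 0 (Mrps18a 0.16, Mrps30 2.61, Mrps36 0.73), so leaving them out lowers these values. Mitoribosome proteins with other names were not added in their place. The 8 small-subunit members that were not called ranged from -1.58 (Mrps26) to 0.73 (Mrps36) on the log2 scale. Mrps5 and Mrps25, with 99 and 86 insertions after and 109 and 106 before screening, had ratios of 1.08 (0.813 to 1.43) and 0.964 (0.717 to 1.29).

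**Figure D2:**
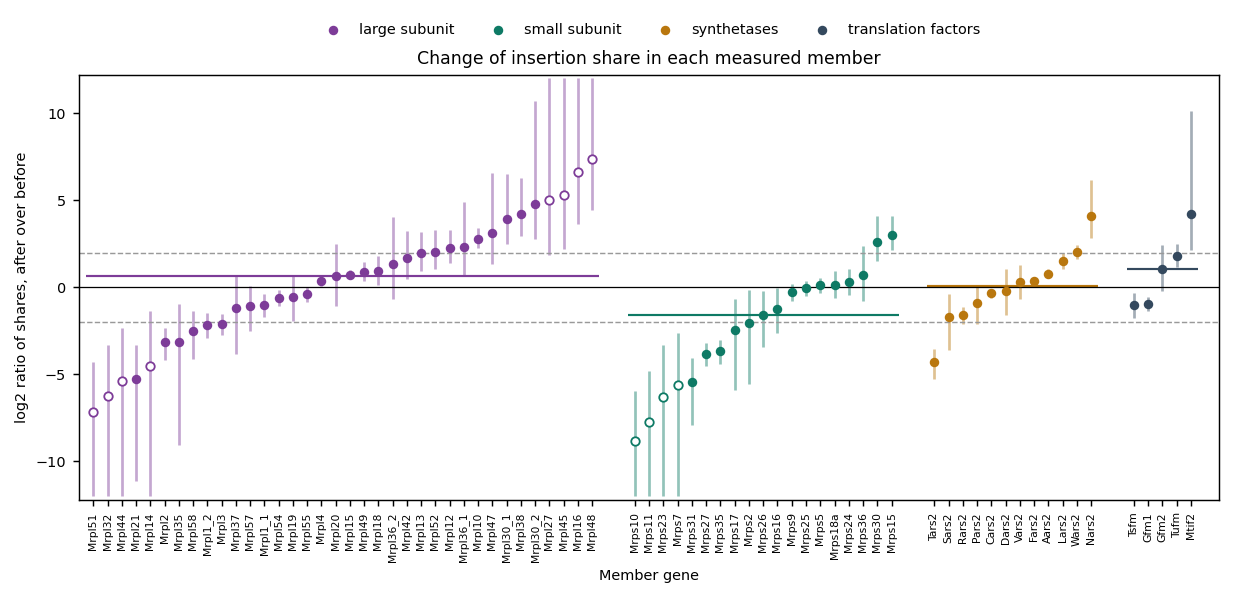
Log2 ratio of the share of insertions, after over before screening, for each measured member, ordered within its role, with 95% counting intervals as vertical bars, drawn no further than 12. Open circles mark members at 0 in 1 library, whose points depend on the 0.5 insertions added to each count. Coloured lines mark the medians (0.68 for the large subunit, -1.58 for the small subunit, 0.05 for the synthetases, 1.04 for the translation factors) and dashed lines a 4-fold difference.

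The synthetases each attach 1 amino acid to its mitochondrial tRNA. Of 12 measured, 2 were higher (16.7%, against 19.5% of all measured genes), 1 was lower (8.33%, against 21.7%) and 6 stayed within 2-fold, with a median log2 ratio of 0.05, and their summed share was 1.11 times that before screening (1.03 to 1.19). They held 1618 insertions after and 1735 before screening, with a median of 199.5 per gene over both libraries.

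Wars2, the tryptophan enzyme, had 211 insertions after and 62 before screening (4.04-fold higher, 3.03 to 5.46), and Nars2, the asparagine enzyme, had 65 after and 4 before (19.3-fold higher, 7.19 to 73.0). Tars2, the threonine enzyme, had 13 after and 318 before (20.6-fold lower, 11.9 to 39.1). All 3 were called on intervals that excluded 1, which cover counting error alone. The fold of Wars2 was close to 4, and its call was lost in reads and with another library total or scaling. In Tars2, 6 of the 13 insertions after and 49 of the 318 before screening were read as exon insertions.

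Fars2, the phenylalanine enzyme, held the most insertions of all members, with 533 after and 493 before screening, a ratio of 1.28 (1.13 to 1.45). Aars2, the alanine enzyme, had 376 after and 258 before (1.73, 1.47 to 2.04), with 141 and 105 of these read as exon insertions. Cars2, the cysteine enzyme, had 195 after and 292 before (0.793, 0.658 to 0.954). These 3 most-hit synthetases all lay within 2-fold. Of the rest, Lars2, the leucine enzyme, had 134 after and 56 before, a ratio of 2.84 (2.07 to 3.96), and Rars2, the arginine enzyme, had 45 after and 164 before, 3.07-fold lower (2.19 to 4.37). Neither reached 4-fold. Slc35a1, which overlaps Rars2, had 0 insertions after and 57 before screening, and Orc3, which also does, had 70 after and 93 before.

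Of the translation factors, 1 of the 5 measured was called higher (against 19.5% of all measured genes) and none lower (against 21.7%). Mtif2, the initiation factor that brings the first tRNA to the ribosome, had 23 insertions after and 1 before screening (27.3-fold higher, 4.44 to 1125). Tufm, the elongation factor that delivers charged tRNAs, had 79 after and 27 before, 3.48-fold higher (2.22 to 5.60), under the 4-fold rule. Its exon insertions were 44 of 79 after and 13 of 27 before screening. Gfm2, which acts in ribosome recycling, had 16 after and 9 before, a ratio of 2.11 (0.879 to 5.42).

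Gfm1, the factor for translocation, had 76 insertions after and 173 before screening (1.92-fold lower, 1.46 to 2.54). Tsfm, the nucleotide exchange factor of Tufm, had 24 after and 58 before (2.03-fold lower, 1.24 to 3.42). Avil, which overlaps Tsfm, had 0 after and 22 before. Mtif3, an initiation factor, had 2 after and 4 before and was not measured. Over the 6 factors the summed ratio was 0.961 (0.801 to 1.15).

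Orientation and exon share describe how the insertions sat in the genes. Of the members' insertions with a counted orientation, 49.4% were forward after screening (47.7 to 51.1) and 49.0% before (47.5 to 50.5), against 49.5% and 49.6% over all genes. Of members with at least 20 oriented insertions, 34 after and 35 before screening, no interval excluded 50%. Between 40 and 60% lay 30 of them after screening (88.2%, against 97.5% of all genes so filtered). Before screening 34 did (97.1%, against 97.7%). Over all genes the interval excluded 50% in 0.631% after and 0.318% before screening. These percentages are below what such intervals would give for independent insertions split evenly, and the reason was not tested. The lowest forward share was that of Mrpl12 after screening, 27.3% (10.7 to 50.2), from 6 forward and 16 reverse insertions. No difference from an even split was detected in any of these members. Forward and reverse counts may not be independent, so these intervals cannot decide whether a member's insertions favoured an orientation. The depth behind the intervals varied. For Fars2 after screening, with 267 forward and 264 reverse insertions, the interval of the forward share was 45.9 to 54.6%.

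**Figure D3:**
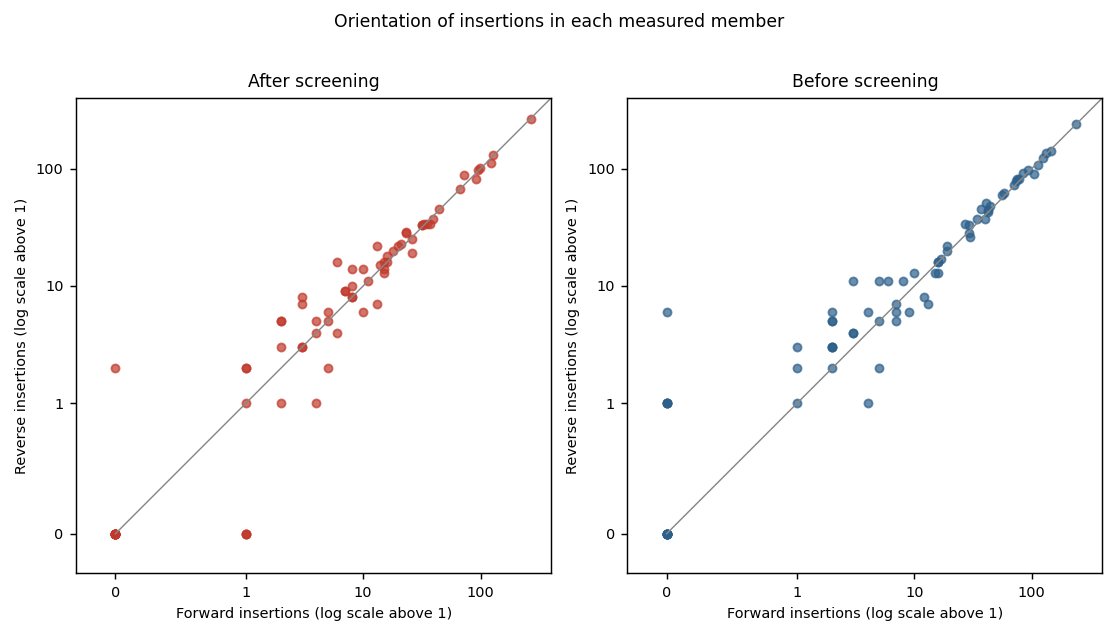
Forward against reverse insertions of each measured member, after screening (left) and before screening (right), on axes that are linear to 1 and logarithmic above it, with the line of equal counts. The members lie along the line in both libraries, with 1618 forward and 1658 reverse insertions after screening and 2093 and 2179 before.

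Disrupting insertions, those the authors' pipeline counts as stopping the gene, made up 57.1% of the members' insertions after screening (55.5 to 58.7) and 56.1% before (54.8 to 57.5), against 57.6% and 56.5% over all genes. In 63 of 64 measured members hit after screening and 66 of 68 hit before, this count equalled all insertions less the reverse ones. It is therefore not a separate observation from orientation and exon share. Exon insertions, where they could be read, made up 15.4% after screening (14.2 to 16.5) and 14.8% before (13.8 to 15.8), against 16.3% and 13.9%. By role the exon share was 29.1% after screening (23.2 to 35.6) and 11% before (7.57 to 15.4) in the translation factors, where 44 of the 64 exon insertions after screening were in Tufm. In the other roles it was alike in both libraries, at 18.2% after and 18.5% before in the large subunit, 14.5% and 15.5% in the small subunit, and 11% and 11.4% in the synthetases. Each member insertion was seen in 1.41 reads after and 1.42 before screening, against 1.83 and 1.85 over all genes. No member with at least 10 insertions in a library exceeded 4.25 reads per insertion, the value of Mrpl42 after screening.

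Related genes outside the name rule are given by count. Of the 5 mitoribosome proteins with other names, 3 were measured and 1 was called. Dap3, a GTP-binding protein of the small subunit, had 0 insertions after and 52 before screening (at least 14.6-fold lower). Aurkaip1, with 56 after and 37 before, and Ptcd3, with 5 after and 6 before, were not called. Among 47 entries for mitoribosome assembly and other mitochondrial translation proteins, 35 were measured, 4 were higher (11.4%, against 19.5% of all measured genes) and 9 lower (25.7%, against 21.7%), with a median log2 ratio of -0.40. Qrsl1, which forms glutaminyl-tRNA by amidation, had 0 after and 54 before (at least 15.2-fold lower), and Ddx28, a helicase of large-subunit assembly, had 32 after and 0 before (at least 12.7-fold higher). Mterf4, which acts in large-subunit assembly, and Trmt5, a tRNA methyltransferase, each had 0 after and 22 before (at least 6.17-fold lower).

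The counterparts of these genes in the cytosol are set beside the same shares of all measured genes, 19.5% higher and 21.7% lower. Of 17 measured genes listed as cytosolic synthetases, 3 were higher (17.6%) and 2 lower (11.8%), with a median log2 ratio of 0.27. Kars and Gars among them also serve mitochondria, so this list is not purely cytosolic. Lars1, the leucine enzyme, had 44 insertions after and 0 before screening (at least 17.4-fold higher), and Farsb, a subunit of the phenylalanine enzyme, had 146 after and 30 before (5.78-fold higher, 3.88 to 8.87). Kars, the lysine enzyme, had 2 after and 109 before (45.9-fold lower, 12.4 to 384), and Mars1, the methionine enzyme, had 20 after and 121 before (5.09-fold lower, 3.16 to 8.63). Of 45 measured cytosolic ribosomal proteins, 12 were higher (26.7%) and 9 lower (20%), with a median of 0.30, led by Rpl37a, Rpl23 and Rpl14 on the higher side and by Rpl18 on the lower. Of 50 measured genes of the respiratory chain, whose core subunits the mitoribosome makes, 12 were higher (24%) and 17 lower (34%), with a median of -0.64. Ndufa5 of complex I had 52 after and 0 before (at least 20.6-fold higher), Ndufa11 of complex I had 96 after and 1 before (114-fold higher, 19.98 to 4550) and Cox6c of complex IV had 39 after and 0 before (at least 15.4-fold higher). Uqcrb of complex III had 0 after and 70 before (at least 19.6-fold lower).

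**Figure D4:**
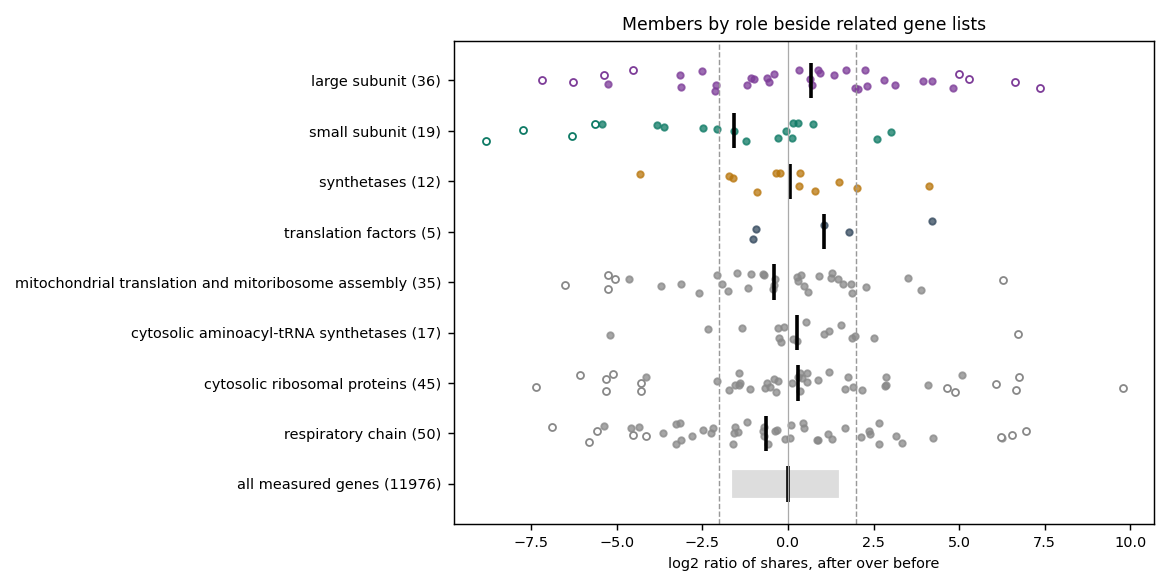
Log2 ratio of the share of insertions, after over before screening, for each measured gene of the 4 roles (coloured) and of related lists (grey), with the number measured in brackets, medians as black lines and 4-fold differences as dashed lines. Open circles mark genes at 0 in 1 library, and the bar at the bottom spans the quartiles of all measured genes. The small subunit has the lowest of the medians shown, at -1.58, and every list with more than 5 measured genes has points past the dashed line on both sides.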

How the data were processed

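Insertions were recovered by splinkerette PCR, which amplifies the genomic sequence beside a transposon end, although the sample labels describe a messenger RNA preparation. Per the methods of the study, reads were trimmed with the FASTX toolkit and insertions assigned to genes with HaSAPPy, whose versions are not given in the sources used here. HISAT2 2.0.5 and featureCounts 1.5.0-p3 stand in the submitters' processing notes. A mouse assembly is named in the methods although the identifiers are rat Ensembl ones, so the build is uncertain and no insertion position is given. For each gene the authors deposited unscaled counts of insertions, disrupting insertions, forward and reverse insertions and reads in each library. Another 33 columns, which include the authors' folds, ranks and Fisher p-values, were not used. The number at the end of each column name was left unread, since no label gives its meaning.

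The fold was the ratio of shares of insertions in genes, after over before screening, with a 95% interval from the exact binomial (Clopper-Pearson) limits of the insertions after screening among those of both libraries (SciPy 1.17.1, Python 3.11.15). The entry for no gene stayed out of the totals except in 1 alternative. Where 1 library had 0 insertions, the bound set it at 3. That bound takes the other count as exact and is therefore larger than the 95% limit. Log2 ratios had 0.5 insertions added to each count. Genes needed at least 10 insertions over both libraries. Insertions without a counted orientation were read as exon insertions where the disrupting count equalled all insertions less the reverse ones. Symbols were matched to RefSeq GRCr8 for neighbours and promoters, 95 directly and 1 by a synonym. The calculation was tested on simulated counts that held counting error alone, with changes set only in genes with many insertions. That simulation did not cover variation between libraries or changes in genes with few insertions.

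The members, lists and rules were chosen with earlier results of these data known. Named were all members called, the 10 with most insertions, those at 0 in 1 library and at least 10 in the other, the translation factors, and up to 4 called genes per related list with the largest log2 ratio. Other genes were named after their values were seen. Alternatives counted reads or disrupting insertions, changed totals, scaling, filters, the fold, the treatment of 0 and the added count, halved the insertions, or left genes out.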

Additional observations from a re-analysis of the deposited data

How the results depend on the processing

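No paired analysis was possible because there was a single library after and a single library before screening. No replicate could be left out for the same reason, and a count of TTAA per gene body was not run because no genome was used here. With at least 50 insertions, 7 members were higher and 11 lower of 38, and 5 small-subunit members were lower of 11. Without members that overlap another gene, 11 were higher of 49 and the summed ratio of the members was 0.760. This filter was not applied to all genes. It was 0.808 without Fars2, the member with most insertions, 0.910 without Mrps27 and 0.683 without the 5 members with most insertions, against 0.852. In the small subunit the summed ratio of 0.335 became 0.405 without Mrps27, 0.291 without Mrps18a, Mrps30 and Mrps36, 0.525 without its 5 members with most insertions, and turned to 1.02 without the 5 with most insertions before screening. The settings without Mrps27, Mrps36 and these groups of genes, and the sum over numbered entries, were added after seeing the data. The members' median log2 ratio of -0.13 was 0.12 in reads, and the part of the measure in this turn was not tested. No member called in 1 direction was called in the other under any alternative. Calls were lost for Mrpl52, Mrps30 and Wars2 in reads, for Mrps2 and Mrps30 in disrupting insertions, for Mrpl13 and Wars2 with either other scaling, for Mrpl35, Mrpl36_1, Mrps17 and Mrps2 with halved insertions, and for Mrpl14 and Mrps2 with 0 set at 3 insertions. The call of Mrpl1_2 was lost with numbered entries summed.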
